A study of Rattus norvegicus with 18 samples.

Results

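The liver of obese rats fed a high dose of plantain was set against the liver of normal control rats, to describe what in gene expression lay away from normal at that dose. The members are 3 libraries of the high-dose group and 3 of the normal control, 6 of the 18 libraries of the series. The genes examined are the 11945 of 33657 in the table that reached at least 1 FPKM in at least 3 of the 18 libraries. FPKM is a fragment count scaled by gene length and by a total set for each library. The labels do not say which plant or which preparation the name plantain stands for.

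Each library was made from liver of a male rat aged 18 weeks. The high-dose group, HD, was obese and was fed plantain at the high dose. The obese control, OC, was obese and received water, and its 3 libraries are set beside the other groups for orientation. The normal control, NC, was labelled healthy and received water. The remaining 9 libraries of the series, from obese rats on lower doses or on the drug orlistat, entered only the shared estimate of the spread. The labels give no strain, no diet, no amount of plantain and no duration. Obesity and plantain differed together between HD and NC, so their parts cannot be told apart in this contrast. Separate animals for the 3 libraries of a group are not stated either. The p-values therefore rest on the spread among the sequenced libraries alone, and that spread may be technical. Over genes with at least 50 reads summed over a pair of libraries, the median squared difference between libraries of a group was 1.46 to 1.55 times what counting alone gives in HD, 1.60 to 1.65 times in OC and 1.49 to 1.76 times in NC. The mean of the same ratio, which a few variable genes can raise, was 3.12 to 4.12 in HD, 3.41 to 4.58 in OC and 3.94 to 5.13 in NC.

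The hepatocyte makes fatty acids, cholesterol, bile acids, glucose and most plasma proteins, and in rodents much of this is set by insulin, by feeding and by the time of day. Insulin and sugar raise the enzymes of fat synthesis through the factors SREBP and ChREBP, sterol shortage raises those of cholesterol synthesis through SREBP, and fatty acids raise those of fat oxidation through PPARalpha. The endothelium of the sinusoids, the Kupffer cells and the stellate cells make up most of the remaining cells of the organ.

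The libraries fitted their tissue label, with albumin transcripts taking 11.82 to 11.89% of the reads in HD, 11.97 to 12.48% in OC and 11.75 to 12.50% in NC. HD libraries held 16598744 to 20636859 recovered reads, OC libraries 19207275 to 24271643 and NC libraries 25516284 to 26202811. HD and NC depths did not overlap, so depth and group cannot be told apart. With all libraries thinned to the depth of the smallest, 2186 genes were higher and 2524 lower in HD than in NC, beside the 2332 and 2737 given next.

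HD liver differed from NC liver across much of the transcriptome, by small amounts for most genes. At an adjusted p under 0.05 (limma on log2(FPKM + 1), Benjamini-Hochberg over all 11945 genes), 5069 genes differed, which is 42.4% of those tested. Of these, 2332 were higher (19.5%) and 2737 lower (22.9%) in HD. The higher and the lower share turned with the scaling, since per-million scaling of the same table (TPM) gave 2864 higher and 2043 lower genes, 58.4% of the calls on the higher side. A difference of over 1 on the log2 scale was passed by 70 genes on the higher side (0.586%) and by 149 on the lower side (1.25%). For 80.4% of genes the 95% interval of the difference lay within 1.5-fold of NC in either direction. Each 1.5-fold bound here and below is on the log2(FPKM + 1) scale, which understates changes of low genes. The 3 HD and 3 NC libraries did not overlap for 53.4% of genes. The same held for 57.8% between HD and OC and for 62.5% between OC and NC.

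HD lay nearer to NC than OC did, by the distance between libraries. The median absolute log2 difference per gene was 0.177 to 0.182 over the 9 pairs of an HD and an NC library, 0.212 to 0.220 over the HD and OC pairs, and 0.231 to 0.238 over the OC and NC pairs. Within a group it was 0.077 to 0.082 in HD, 0.078 to 0.083 in OC and 0.066 to 0.071 in NC. OC and NC differed in 6578 genes (55.1%), of which 26.7% of all genes were higher and 28.4% lower in OC. Under TPM that split was 1973 higher and 4569 lower, against 3191 and 3387 in the reported fit. HD and OC differed in 6199 (51.9%), with 26.6% of all genes higher and 25.3% lower in HD, and 76.7% of genes within 1.5-fold by the 95% interval. Under TPM there were 5176 higher and 1476 lower, against 3181 and 3018 in the reported fit, so neither split is even under that scaling. The 3 comparisons share libraries, so their values are given side by side and no overlap between them is counted.

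**Figure D1:**
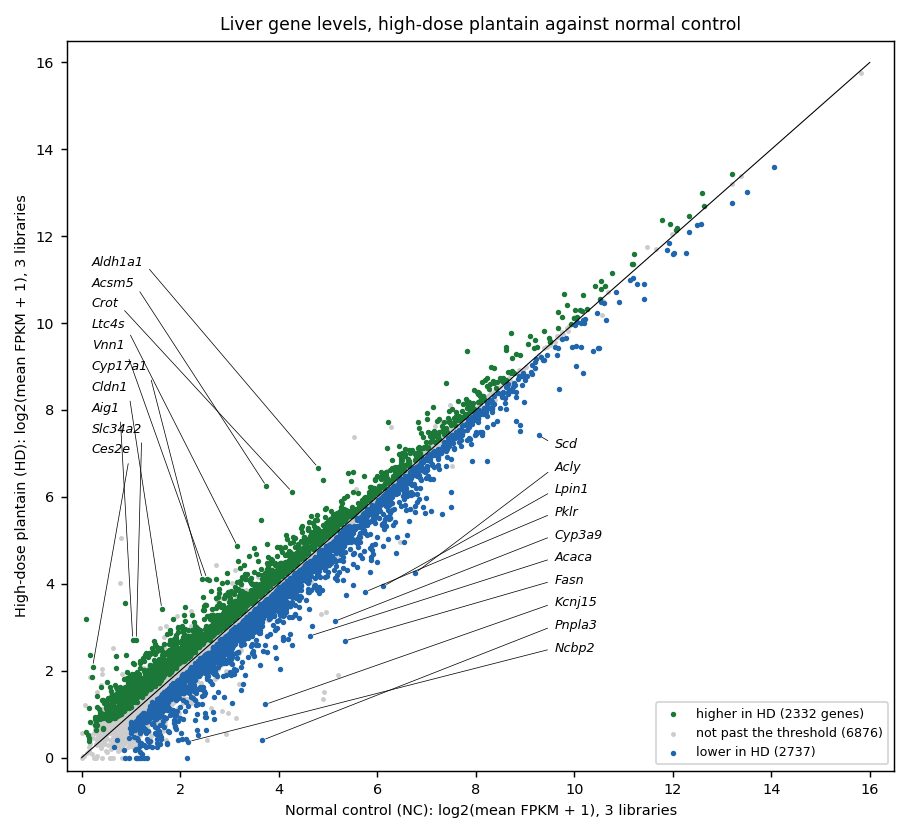
Mean level of each of the 11945 genes in HD (vertical axis) and NC (horizontal axis), both as log2(mean FPKM + 1) of 3 libraries. Green points are the 2332 genes higher in HD, blue points the 2737 lower in HD and grey points the rest. The line marks equal levels. Named are the 10 genes with the largest differences on each side within a restricted ranking. It held protein-coding genes with a symbol, past the threshold, without overlap of HD and NC and with a mean of at least 2 FPKM.

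Ranked by difference were protein-coding genes with a symbol, past the threshold, without overlap of HD and NC and with a mean of at least 2 FPKM. Over all genes the differences ran from -3.27 to 3.11, so larger rises exist outside this ranking. Of the 10 ranked genes with the largest falls in HD, 6 are members of the list of fatty acid and triglyceride synthesis (Pnpla3, Fasn, Acly, Lpin1, Scd and Acaca). The 10 with the largest rises were more mixed, from acyl-CoA and aldehyde enzymes to a tight junction protein. Acsm5, a mitochondrial medium-chain acyl-CoA synthetase listed at chr1:189233141-189272172 (the build of the table is not named in the sources used here), had 74.5, 74.1 and 75.6 FPKM in HD livers, 18.8, 18.6 and 18.6 FPKM in OC livers and 12.3, 12.7 and 12.4 FPKM in NC livers. HD stood far above both control groups, and no libraries of HD overlapped with theirs (log2 difference 2.49, SE 0.026, adjusted p = 5.0e-18). The carboxylesterase gene Ces2e, at chr19:85606-100424, had 3.40, 3.19 and 3.15 FPKM in HD livers, 0.4796, 0.380 and 0.341 FPKM in OC livers and 0.180, 0.217 and 0.0969 FPKM in NC livers (log2 difference 1.87, SE 0.070, adjusted p = 6.9e-12). Ces2e was low in both controls and stood apart in HD. Reads of near-identical carboxylesterase copies could be split or shared here.

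Aldh1a1, which oxidises retinaldehyde to retinoic acid, had 101, 99.2 and 102 FPKM in HD livers, 74.4, 72.8 and 73.0 FPKM in OC livers and 26.7, 27.0 and 27.0 FPKM in NC livers (log2 difference 1.87, SE 0.024, adjusted p = 2.2e-17). Crot, which hands medium-chain acyl groups from the peroxisome to carnitine, had 67.6, 66.4 and 70.5 FPKM in HD livers, 137, 137 and 133 FPKM in OC livers and 18.6, 18.4 and 17.9 FPKM in NC livers (log2 difference 1.84, SE 0.032, adjusted p = 9.7e-16). Cldn1, a protein of tight junctions, had 9.66, 9.47 and 9.90 FPKM in HD livers, 32.5, 31.0 and 30.3 FPKM in OC livers and 2.05, 1.80 and 2.41 FPKM in NC livers (log2 difference 1.79, SE 0.070, adjusted p = 1.1e-11). Aldh1a1 was highest in HD, whereas Crot and Cldn1 were highest in OC with HD between OC and NC.

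Ltc4s, leukotriene C4 synthase, averaged 28.0 ± 3.54 FPKM in HD livers, 53.6 ± 3.81 FPKM in OC livers and 7.95 ± 1.54 FPKM in NC livers (SD, n = 3 each, also for the means below). Slc34a2, a sodium-phosphate cotransporter, averaged 5.53 ± 0.224 FPKM in HD livers, 16.3 ± 1.04 FPKM in OC livers and 1.15 ± 0.0362 FPKM in NC livers. Both genes lay between OC and NC in HD, with HD minus NC differences of 1.705 and 1.60. Aig1, a hydrolase of fatty acid esters of hydroxy fatty acids, averaged 5.54 ± 0.943 FPKM in HD livers, 4.37 ± 0.278 FPKM in OC livers and 1.05 ± 0.238 FPKM in NC livers, and its HD and OC libraries overlapped. Cyp17a1, a steroid hydroxylase, averaged 16.2 ± 0.272 FPKM in HD livers, 12.03 ± 0.562 FPKM in OC livers and 4.47 ± 0.512 FPKM in NC livers. Vnn1, a pantetheinase and PPARalpha target, averaged 16.3 ± 0.259 FPKM in HD livers, 11.0 ± 0.679 FPKM in OC livers and 4.83 ± 0.113 FPKM in NC livers. Cyp17a1 and Vnn1 were highest in HD.

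On the lower side, Pnpla3, a lipase of lipid droplets at chr7:125034764-125055976, had 0.166, 0.366 and 0.420 FPKM in HD livers, 0.584, 0.422 and 0.295 FPKM in OC livers and 11.5, 10.9 and 12.7 FPKM in NC livers (log2 difference -3.27, SE 0.094, adjusted p = 3.2e-13). Fasn, the fatty acid synthase at chr10:109987735-110005901, had 5.19, 5.66 and 5.40 FPKM in HD livers, 5.49, 5.05 and 5.55 FPKM in OC livers and 39.7, 38.9 and 39.6 FPKM in NC livers (log2 difference -2.66, SE 0.052, adjusted p = 3.8e-15). Acly, which supplies acetyl-CoA from citrate, had 17.8, 17.9 and 18.1 FPKM in HD livers, 17.5, 16.6 and 17.0 FPKM in OC livers and 108, 107 and 108 FPKM in NC livers (log2 difference -2.52, SE 0.034, adjusted p = 4.4e-17). In each of these genes HD lay far below NC without overlap, and the HD and OC values of Pnpla3 and Fasn overlapped.

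Kcnj15, a potassium channel, averaged 1.33 ± 0.172 FPKM in HD livers, 0.521 ± 0.141 FPKM in OC livers and 12.2 ± 0.256 FPKM in NC livers. Lpin1, a phosphatidate phosphatase, averaged 14.4 ± 0.244 FPKM in HD livers, 13.0 ± 0.527 FPKM in OC livers and 68.7 ± 1.67 FPKM in NC livers. Cyp3a9, a cytochrome P450, averaged 7.79 ± 0.773 FPKM in HD livers, 7.81 ± 0.563 FPKM in OC livers and 34.2 ± 1.01 FPKM in NC livers. Pklr, the liver pyruvate kinase, averaged 13.0 ± 0.133 FPKM in HD livers, 15.0 ± 0.864 FPKM in OC livers and 52.9 ± 0.638 FPKM in NC livers. The HD minus NC differences of these genes were -2.51, -2.18, -2.004 and -1.94. Ncbp2, a subunit of the nuclear cap-binding complex, had 0.434, 0.332 and 0.0959 FPKM in HD livers, 0.291, 0.185 and 0.272 FPKM in OC livers and 2.57, 4.71 and 3.15 FPKM in NC livers. Its groups did not overlap between HD and NC, but its NC libraries spread widely and its error was large (log2 difference -1.78, SE 0.46, adjusted p = 0.0053).

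**Figure D2:**
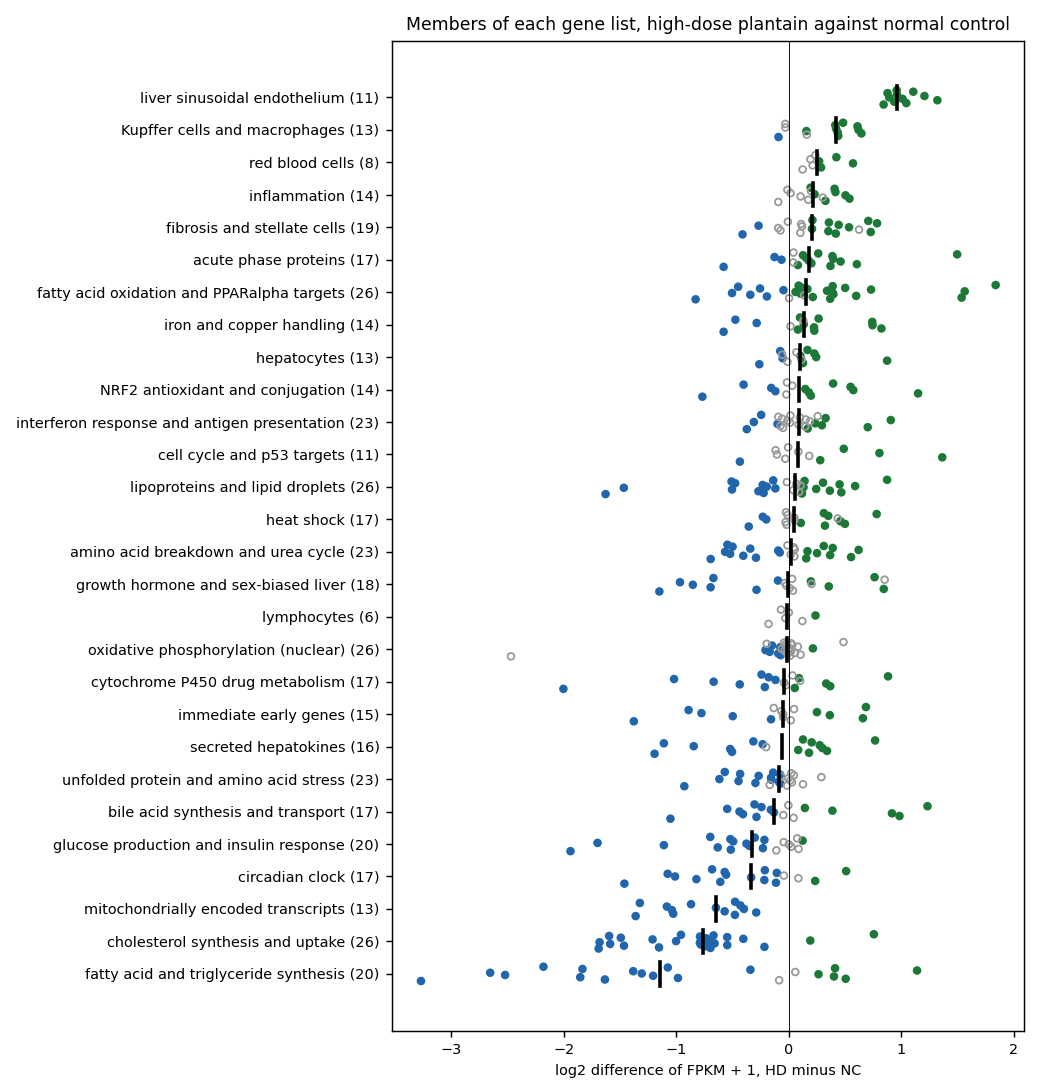
HD minus NC log2 difference of each tested member (points) of the 28 gene lists with at least 5 tested members, number of tested members in brackets. Filled green points were higher and filled blue points lower in HD at an adjusted p under 0.05, open points did not pass, and the black bar is the list's median, which ran from -1.14 for fatty acid and triglyceride synthesis to 0.96 for sinusoidal endothelium.

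Genes of fat synthesis had the lowest median of the gene lists examined. Of 20 tested members of the list of fatty acid and triglyceride synthesis, 13 were lower and 5 higher in HD than in NC, with a median of -1.14 against -0.017 for all genes. The counts of this and every later list stand beside these shares over all genes. Against NC, 19.5% of genes were higher and 22.9% lower in HD, and 26.7% higher and 28.4% lower in OC. In OC, 13 were lower and 5 higher than in NC as well, with a median of -1.28. Scd, the stearoyl-CoA desaturase, had 170.0, 167 and 175 FPKM in HD livers, 243, 244 and 245 FPKM in OC livers and 619.6, 621 and 615 FPKM in NC livers (log2 difference -1.85, SE 0.020, adjusted p = 5.3e-18). Scd was lower in HD than in either control, and the HD minus OC difference was -0.51. Acaca, the acetyl-CoA carboxylase that commits carbon to fatty acids, had 6.19, 6.01 and 5.66 FPKM in HD livers, 3.30, 3.23 and 3.16 FPKM in OC livers and 23.7, 23.9 and 23.8 FPKM in NC livers (log2 difference -1.83, SE 0.037, adjusted p = 4.8e-15). Here HD lay below NC but above OC.

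Thrsp, a lipogenic regulator of liver, averaged 356 ± 4.83 FPKM in HD livers, 248 ± 0.808 FPKM in OC livers and 824 ± 2.36 FPKM in NC livers (log2 difference -1.21, SE 0.014, adjusted p = 1.3e-17). Fads1, the delta-5 desaturase, averaged 68.2 ± 1.97 FPKM in HD livers, 76.1 ± 1.36 FPKM in OC livers and 179.6 ± 1.42 FPKM in NC livers (log2 difference -1.38, SE 0.026, adjusted p = 2.0e-15). Fads2, the delta-6 desaturase, averaged 214 ± 3.93 FPKM in HD livers, 173 ± 1.096 FPKM in OC livers and 452 ± 5.60 FPKM in NC livers. Acacb, the carboxylase at the mitochondrial membrane, averaged 5.85 ± 0.182 FPKM in HD livers, 3.35 ± 0.149 FPKM in OC livers and 15.95 ± 0.0529 FPKM in NC livers, and Acss2, which activates acetate, averaged 12.3 ± 0.1001 FPKM in HD livers, 9.99 ± 0.212 FPKM in OC livers and 40.4 ± 1.13 FPKM in NC livers. Me1, malic enzyme and a source of NADPH, averaged 6.15 ± 0.187 FPKM in HD livers, 7.50 ± 0.266 FPKM in OC livers and 13.2 ± 0.308 FPKM in NC livers. All of these were lower in HD, with Thrsp, Fads2, Acacb and Acss2 above OC and with Fads1 and Me1 below it.

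The 5 members that were higher in HD were Gpam, Elovl5, Dgat2, Agpat2 and Srebf1. Gpam, Agpat2 and Dgat2 attach acyl chains to glycerol, Elovl5 lengthens polyunsaturated chains, and Srebf1 encodes a transcription factor of lipogenesis. Gpam had 20.3, 20.3 and 20.8 FPKM in HD livers, 33.1, 32.1 and 33.2 FPKM in OC livers and 8.21, 8.94 and 9.08 FPKM in NC livers (log2 difference 1.14, SE 0.045, adjusted p = 1.5e-11). The HD level lay between those of OC and NC, without overlap.

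Cholesterol synthesis lay below normal in nearly every step. Of the 26 tested members of the cholesterol list, 24 were lower and 2 higher in HD than in NC, with a median of -0.76. Over all genes 22.9% were lower and 19.5% higher. None of the members overlapped between the groups, and 53.4% of all genes did not overlap. In OC, 23 were lower and 1 higher than in NC, with a median of -0.90. Cyp51, lanosterol demethylase, had 29.5, 29.9 and 30.4 FPKM in HD livers, 30.3, 29.9 and 30.4 FPKM in OC livers and 92.2, 94.2 and 89.7 FPKM in NC livers (log2 difference -1.59, SE 0.025, adjusted p = 3.1e-16). Fdps, farnesyl diphosphate synthase, had 26.0, 23.9 and 25.3 FPKM in HD livers, 27.0, 25.3 and 25.4 FPKM in OC livers and 82.9, 82.4 and 82.9 FPKM in NC livers (log2 difference -1.68, SE 0.035, adjusted p = 6.5e-15). For both enzymes the HD and OC libraries overlapped, and both groups lay far below NC.

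Idi1, isopentenyl diphosphate isomerase, averaged 5.02 ± 0.354 FPKM in HD livers, 5.31 ± 0.240 FPKM in OC livers and 18.4 ± 0.904 FPKM in NC livers. Nsdhl, a sterol dehydrogenase, averaged 66.5 ± 0.914 FPKM in HD livers, 69.6 ± 1.30 FPKM in OC livers and 111 ± 0.769 FPKM in NC livers (log2 difference -0.73, SE 0.020, adjusted p = 1.9e-13). Sqle, squalene epoxidase, had 5.84, 5.85 and 5.19 FPKM in HD livers, 4.15, 3.72 and 4.57 FPKM in OC livers and 17.97, 17.5 and 16.4 FPKM in NC livers (log2 difference -1.47, SE 0.062, adjusted p = 3.3e-11). Sqle was higher in HD than in OC while still below NC, with an HD minus OC difference of 0.37.

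The sterol sensors Insig1 and Insig2 hold the SREBP precursor in the endoplasmic reticulum. Insig1, itself an SREBP target, averaged 53.4 ± 0.954 FPKM in HD livers, 68.6 ± 1.14 FPKM in OC livers and 120.0 ± 2.46 FPKM in NC livers (log2 difference -1.15, SE 0.035, adjusted p = 5.8e-13). Insig2 had 89.7, 88.1 and 88.6 FPKM in HD livers, 210.0, 206 and 202 FPKM in OC livers and 53.2, 52.5 and 50.8 FPKM in NC livers (log2 difference 0.76, SE 0.030, adjusted p = 1.4e-11). Insig2 was the largest rise of the list, with HD between OC and NC. The other higher member was Scap, which escorts SREBP, with a difference of 0.19.

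**Figure D3:**
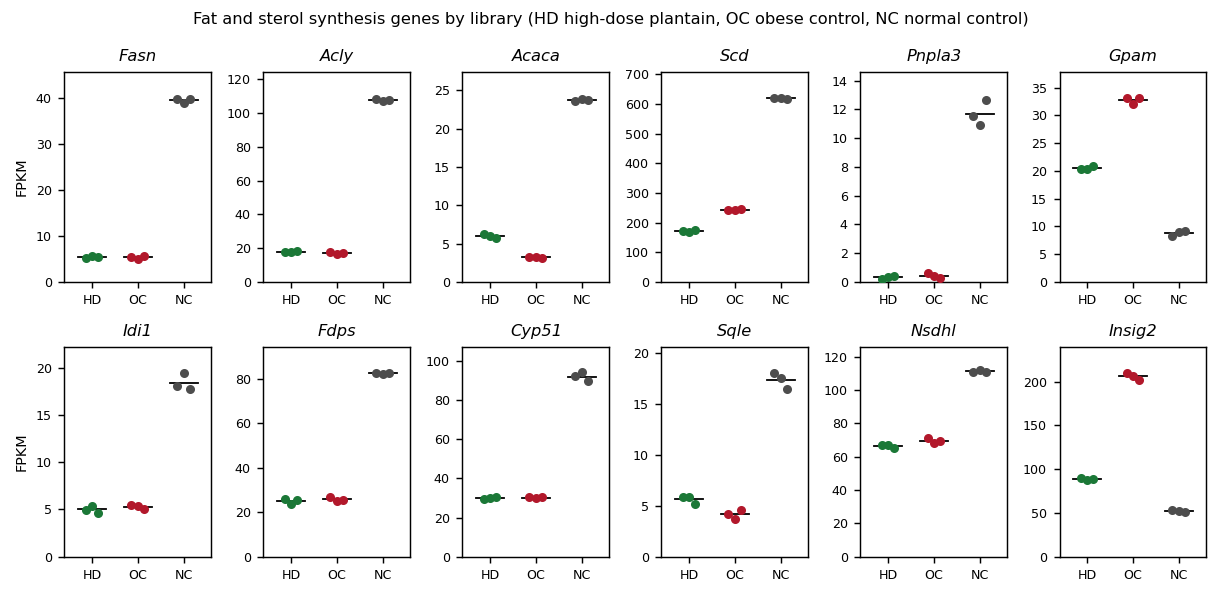
FPKM per library (points) and group mean (horizontal lines) of 6 genes of fat synthesis (upper row) and 6 of sterol synthesis and its control (lower row), in HD, OC and NC, each axis starting at 0. Fasn, Acly, Acaca, Scd, Pnpla3, Idi1, Fdps, Cyp51, Sqle and Nsdhl are lower in HD than in NC in every library, and Gpam and Insig2 are higher in HD than in NC and highest in OC.

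Fatty acid oxidation stood on the other side. Of 26 tested members of the list of oxidation and PPARalpha targets, 17 were higher and 7 lower in HD than in NC, with a median of 0.15, and 18 were higher and 8 lower in OC, with a median of 0.25. Cyp4a2, a fatty acid omega-hydroxylase, had 643, 651 and 687 FPKM in HD livers, 590.2, 622 and 615 FPKM in OC livers and 230.2, 225 and 225 FPKM in NC livers (log2 difference 1.54, SE 0.028, adjusted p = 1.5e-15). Acaa2, the mitochondrial thiolase, had 503, 504 and 503 FPKM in HD livers, 402, 388 and 402 FPKM in OC livers and 336, 329 and 331 FPKM in NC livers (log2 difference 0.60, SE 0.018, adjusted p = 4.9e-13). Both were highest in HD. Reads of Cyp4a2 could be shared with the near-identical Cyp4a copies.

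Hadhb, the thiolase subunit of the trifunctional protein, averaged 143 ± 2.62 FPKM in HD livers, 119.9 ± 4.92 FPKM in OC livers and 85.6 ± 0.488 FPKM in NC livers (log2 difference 0.73, SE 0.030, adjusted p = 1.8e-11). Vnn1 and Crot, given above, belong to the same list. Pex11a, a peroxisome division factor, averaged 8.72 ± 0.207 FPKM in HD livers, 12.8 ± 0.368 FPKM in OC livers and 16.3 ± 1.04 FPKM in NC livers and was the lowest member (log2 difference -0.83, SE 0.038, adjusted p = 7.9e-11). Fgf21, a fasting-type hormone of liver, averaged 9.56 ± 1.85 FPKM in HD livers, 19.0 ± 1.64 FPKM in OC livers and 13.8 ± 0.782 FPKM in NC livers, lower in HD than in either control (log2 difference -0.50, SE 0.11, adjusted p = 0.0012).

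The list of lipoproteins and lipid droplets held changes in both directions, with 10 of 26 tested members higher and 11 lower in HD. This balance depended on the scaling, with 11 higher and 10 lower under TPM and 10 higher and 9 lower under quantile normalization. Apoa1, the main protein of high-density lipoprotein, had 1637, 1622 and 1645 FPKM in HD livers, 1905, 1893 and 1922 FPKM in OC livers and 882, 897 and 895 FPKM in NC livers (log2 difference 0.87, SE 0.020, adjusted p = 2.6e-14). Angptl4, an inhibitor of lipoprotein lipase, had 34.1, 34.3 and 33.8 FPKM in HD livers, 62.2, 62.1 and 57.7 FPKM in OC livers and 97.6, 95.2 and 95.04 FPKM in NC livers (log2 difference -1.47, SE 0.036, adjusted p = 5.0e-14). Apoa1 was above NC and Angptl4 below both controls in every HD library.

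G0s2, an inhibitor of adipose triglyceride lipase, averaged 180.0 ± 2.53 FPKM in HD livers, 283 ± 6.65 FPKM in OC livers and 257 ± 3.79 FPKM in NC livers (log2 difference -0.51, SE 0.023, adjusted p = 8.6e-11). Plin2, a coat protein of lipid droplets, had 30.2, 30.5 and 29.9 FPKM in HD livers, 67.6, 71.3 and 71.6 FPKM in OC livers and 42.2, 43.8 and 43.7 FPKM in NC livers (log2 difference -0.50, SE 0.036, adjusted p = 1.6e-08). Plin2 was lower in HD than in NC, whereas OC was higher than NC (log2 difference 0.68, SE 0.036, adjusted p = 2.2e-10). Apoa5, which promotes lipoprotein lipolysis, averaged 613 ± 0.315 FPKM in HD livers, 618 ± 11.1 FPKM in OC livers and 475 ± 5.49 FPKM in NC livers (log2 difference 0.37, SE 0.018, adjusted p = 1.4e-10). The lipoprotein receptor gene Lrp1 averaged 67.8 ± 1.64 FPKM in HD livers, 52.1 ± 0.765 FPKM in OC livers and 44.7 ± 1.24 FPKM in NC livers (log2 difference 0.59, SE 0.056, adjusted p = 4.9e-07).

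Among 17 tested genes of bile acid synthesis and transport, 5 were higher and 9 lower in HD than in NC, with a median of -0.13. Cyp8b1, the sterol hydroxylase that makes cholic acid, had 214, 212 and 210.1 FPKM in HD livers, 234, 235 and 246 FPKM in OC livers and 112, 113 and 111 FPKM in NC livers (log2 difference 0.92, SE 0.021, adjusted p = 2.4e-14). Abcb4, the phosphatidylcholine floppase of bile, had 11.9, 12.03 and 11.9 FPKM in HD livers, 13.4, 13.3 and 13.7 FPKM in OC livers and 4.36, 4.57 and 4.59 FPKM in NC livers (log2 difference 1.23, SE 0.029, adjusted p = 2.5e-14). Both lay well above NC and slightly below OC. Nr0b2, the repressor SHP and a target of the bile acid receptor FXR, had 27.9, 26.8 and 32.6 FPKM in HD livers, 37.9, 38.8 and 39.0 FPKM in OC livers and 61.2, 60.8 and 61.9 FPKM in NC livers (log2 difference -1.05, SE 0.056, adjusted p = 4.7e-10), below both controls.

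Cyp7a1, whose hydroxylase limits the rate at which bile acids are made, had 45.1, 43.2 and 44.5 FPKM in HD livers, 19.0, 19.1 and 18.8 FPKM in OC livers and 34.2, 33.2 and 33.4 FPKM in NC livers (log2 difference 0.39, SE 0.032, adjusted p = 8.2e-08). It was higher in HD than in NC and lower in OC than in NC (log2 difference -0.79, SE 0.032, adjusted p = 8.1e-12), and no libraries overlapped. Abcg5, a sterol exporter into bile, averaged 10.5 ± 0.573 FPKM in HD livers, 5.04 ± 0.416 FPKM in OC livers and 4.78 ± 0.139 FPKM in NC livers (log2 difference 0.98, SE 0.059, adjusted p = 2.1e-09). Its OC and NC libraries overlapped, and HD stood above both. Abcc2, the canalicular conjugate exporter, averaged 77.9 ± 0.665 FPKM in HD livers, 95.3 ± 1.08 FPKM in OC livers and 106 ± 1.20 FPKM in NC livers (log2 difference -0.44, SE 0.022, adjusted p = 3.0e-10).

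Genes of glucose production and of the insulin response were mostly below normal. Of 20 tested members, 13 were lower and 1 higher in HD than in NC, with a median of -0.33. The 1 higher member was Gckr, which did not pass without HD replicate 2, HD replicate 3, NC replicate 2 or NC replicate 3 (0 higher in each), while TPM gave 3 higher members. In OC, 15 were lower and 4 higher than in NC. G6pc, the catalytic subunit of glucose-6-phosphatase, had 47.4, 48.5 and 47.5 FPKM in HD livers, 88.4, 85.9 and 83.2 FPKM in OC livers and 159, 156 and 157 FPKM in NC livers (log2 difference -1.7005, SE 0.034, adjusted p = 4.5e-15). It was lower in HD than in either control. Igfbp1, an insulin-repressed binding protein of insulin-like growth factors, averaged 23.0 ± 0.304 FPKM in HD livers, 33.1 ± 0.495 FPKM in OC livers and 50.8 ± 2.23 FPKM in NC livers (log2 difference -1.11, SE 0.041, adjusted p = 5.7e-12).

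Slc2a2, the glucose transporter of hepatocytes, had 180.3, 179 and 175 FPKM in HD livers, 104, 105 and 109 FPKM in OC livers and 278, 274 and 278 FPKM in NC livers (log2 difference -0.63, SE 0.022, adjusted p = 4.2e-12). Its HD level lay between those of OC and NC. Gckr, a regulatory protein of hepatic sugar use, had 27.5, 30.1 and 30.1 FPKM in HD livers, 74.8, 74.7 and 77.6 FPKM in OC livers and 27.2, 26.3 and 26.7 FPKM in NC livers (log2 difference 0.12, SE 0.040, adjusted p = 0.023). In OC Gckr was far higher than in NC (log2 difference 1.47, SE 0.040, adjusted p = 7.9e-14).

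Of 23 tested genes of amino acid breakdown and the urea cycle, 8 were higher and 10 lower in HD, a balance that turned to 12 higher and 8 lower under TPM, 12 and 9 under quantile normalization and 11 and 10 with voom. Bhmt, which returns methyl groups to homocysteine, had 714, 712 and 707 FPKM in HD livers, 759.9, 740.5 and 749.9 FPKM in OC livers and 1047, 1059.7 and 1052 FPKM in NC livers (log2 difference -0.57, SE 0.012, adjusted p = 6.5e-15). Hpd, an enzyme of tyrosine breakdown, had 687, 695 and 697 FPKM in HD livers, 833, 814 and 836.5 FPKM in OC livers and 1109, 1144 and 1114 FPKM in NC livers (log2 difference -0.69, SE 0.015, adjusted p = 1.6e-14). Ass1, argininosuccinate synthase, averaged 697 ± 3.16 FPKM in HD livers, 555 ± 8.16 FPKM in OC livers and 986 ± 9.10 FPKM in NC livers (log2 difference -0.50, SE 0.020, adjusted p = 1.2e-11). Sds, serine dehydratase, averaged 159.9 ± 2.74 FPKM in HD livers, 85.4 ± 2.79 FPKM in OC livers and 234 ± 0.459 FPKM in NC livers (log2 difference -0.55, SE 0.024, adjusted p = 4.7e-11). These 4 genes had the smallest p-values of the list, and all were lower in HD than in NC. Ass1 and Sds were lower still in OC.

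Drug-metabolizing cytochrome P450 genes changed in both directions, with 5 of 17 tested members higher and 8 lower in HD, and 7 higher and 7 lower under TPM and under quantile normalization, where the sign of the median turned from -0.042 to 0.013 and 0.024. Por, the reductase that feeds electrons to these enzymes, had 202, 205 and 201 FPKM in HD livers, 109, 107 and 109 FPKM in OC livers and 321, 325 and 323 FPKM in NC livers (log2 difference -0.67, SE 0.028, adjusted p = 2.4e-11). Cyp2c11, the male-type P450 of rat liver, had 643, 655 and 681 FPKM in HD livers, 545, 523 and 512 FPKM in OC livers and 1361, 1315 and 1339 FPKM in NC livers (log2 difference -1.02, SE 0.053, adjusted p = 4.3e-10). Both were below NC in HD and lower still in OC. Nr1i2, the xenobiotic receptor PXR, averaged 76.4 ± 0.357 FPKM in HD livers, 77.5 ± 0.552 FPKM in OC livers and 104 ± 2.29 FPKM in NC livers (log2 difference -0.44, SE 0.021, adjusted p = 1.8e-10). Reads of P450 genes can be shared among near-identical copies, so single members of the Cyp2c and Cyp3a families are uncertain.

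Of 14 tested genes of the NRF2 antioxidant list, 7 were higher and 4 lower in HD. Hmox1, heme oxygenase, had 24.9, 25.0 and 24.2 FPKM in HD livers, 21.8, 22.9 and 23.3 FPKM in OC livers and 11.0, 10.6 and 10.2 FPKM in NC livers (log2 difference 1.15, SE 0.043, adjusted p = 7.7e-12). Nqo1, a quinone reductase, had 26.2, 26.4 and 25.8 FPKM in HD livers, 16.1, 16.1 and 17.5 FPKM in OC livers and 16.3, 18.7 and 17.7 FPKM in NC livers (log2 difference 0.55, SE 0.049, adjusted p = 2.2e-07). Nqo1 stood apart in HD, with OC and NC overlapping. Gclm, the modifier subunit of glutathione synthesis, averaged 115 ± 0.114 FPKM in HD livers, 55.7 ± 1.20 FPKM in OC livers and 128 ± 0.990 FPKM in NC livers (log2 difference -0.16, SE 0.024, adjusted p = 7.3e-05), so it was close to NC in HD and far below it in OC (log2 difference -1.19, SE 0.024, adjusted p = 2.2e-15). Ephx1, the microsomal epoxide hydrolase, averaged 462 ± 6.75 FPKM in HD livers, 485 ± 1.04 FPKM in OC livers and 417 ± 3.29 FPKM in NC livers (log2 difference 0.15, SE 0.015, adjusted p = 9.4e-07).

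In the list of iron and copper handling, 9 of 14 tested members were higher and 3 lower in HD. Mt2A, a metallothionein, had 719, 663 and 704 FPKM in HD livers, 581, 556 and 584 FPKM in OC livers and 402, 389.5 and 385 FPKM in NC livers (log2 difference 0.82, SE 0.035, adjusted p = 3.4e-11). Hamp, which encodes the iron hormone hepcidin, had 1085, 1056 and 1083 FPKM in HD livers, 1053, 1030.5 and 1052 FPKM in OC livers and 1622, 1633 and 1564 FPKM in NC livers (log2 difference -0.58, SE 0.027, adjusted p = 1.0e-10). Bmp6, the endothelial signal that raises hepcidin, had 3.53, 3.80 and 2.82 FPKM in HD livers, 1.87, 1.37 and 1.77 FPKM in OC livers and 1.49, 1.60 and 1.74 FPKM in NC livers (log2 difference 0.74, SE 0.12, adjusted p = 1.3e-04). Hamp was lower in HD and in OC than in NC, while Bmp6 was higher in HD and its OC and NC libraries overlapped. Tf, transferrin, and Tfr2, its receptor in hepatocytes, were both higher in HD, by 0.23 and 0.27.

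The genes that set HD apart from both controls included the markers of the liver sinusoidal endothelium, the fenestrated lining that clears waste from blood. All 11 tested markers were higher in HD than in NC (12 listed, 11 in the table, 11 tested), with a median of 0.96 and differences from 0.84 to 1.32. Their summed level was 172.3 to 173.4 FPKM in HD, 101.6 to 104.0 FPKM in OC and 80.2 to 81.2 FPKM in NC. Between HD and OC, 10 of the 11 were higher in HD, with a median of 0.86, and between OC and NC 8 were higher in OC, with a median of 0.24. In bulk liver, more cells of a type and more RNA per cell cannot be told apart.

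Kdr, the vascular endothelial growth factor receptor, had 12.7, 13.4 and 13.8 FPKM in HD livers, 6.03, 6.19 and 6.65 FPKM in OC livers and 5.26, 5.21 and 5.14 FPKM in NC livers (log2 difference 1.21, SE 0.037, adjusted p = 7.3e-13). Fcgr2b, the endothelial Fc receptor that clears immune complexes, had 27.5, 27.1 and 27.2 FPKM in HD livers, 14.2, 13.5 and 13.3 FPKM in OC livers and 10.8, 9.46 and 10.7 FPKM in NC livers (log2 difference 1.32, SE 0.047, adjusted p = 3.9e-12). Stab2, a hyaluronan scavenger receptor, had 4.79, 4.80 and 4.74 FPKM in HD livers, 1.80, 1.64 and 1.67 FPKM in OC livers and 1.63, 1.69 and 1.72 FPKM in NC livers (log2 difference 1.11, SE 0.040, adjusted p = 4.4e-12). Ehd3, an endocytic protein of these cells, averaged 33.6 ± 1.25 FPKM in HD livers, 18.03 ± 0.822 FPKM in OC livers and 16.7 ± 0.369 FPKM in NC livers (log2 difference 0.96, SE 0.034, adjusted p = 4.2e-12), and Lyve1, a hyaluronan receptor, averaged 22.1 ± 0.475 FPKM in HD livers, 10.7 ± 0.217 FPKM in OC livers and 10.9 ± 0.519 FPKM in NC livers. In Stab2, Ehd3 and Lyve1 the OC and NC libraries overlapped and HD stood above both. Clec4g, a lectin of the same cells, averaged 23.5 ± 0.626 FPKM in HD livers, 22.5 ± 1.34 FPKM in OC livers and 12.7 ± 0.698 FPKM in NC livers, with HD and OC overlapping and both above NC. Bmp6, given above, is made by the same cells, and its HD minus NC difference was 0.74. Whether the endothelial share of the tissue took part in that difference was not tested.

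Markers of other cells moved less or were few. Of 13 tested markers of Kupffer cells and macrophages, 9 were higher and 1 lower in HD than in NC, with a median of 0.42, against 12 higher and 0 lower in OC, with a median of 0.74. The lower member, Cd74, did not pass without HD replicate 1 or NC replicate 2, nor under TPM, quantile normalization or voom (0 lower in each). The summed level of these markers was 363 to 366 FPKM in HD, 415 to 430.1 FPKM in OC and 281 to 284 FPKM in NC. Clec4f, the lectin of Kupffer cells, had 58.9, 57.4 and 60.2 FPKM in HD livers, 58.2, 56.1 and 59.4 FPKM in OC livers and 38.4, 35.5 and 37.9 FPKM in NC livers (log2 difference 0.65, SE 0.035, adjusted p = 7.4e-10). C1qa, a complement gene expressed in macrophages, had 65.1, 63.3 and 62.3 FPKM in HD livers, 70.9, 69.5 and 75.9 FPKM in OC livers and 42.8, 40.2 and 40.1 FPKM in NC livers (log2 difference 0.62, SE 0.043, adjusted p = 1.1e-08). HD and OC overlapped for Clec4f, and HD lay between OC and NC for C1qa.

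The members differed among themselves. Marco, a scavenger receptor of Kupffer cells, averaged 6.23 ± 0.1195 FPKM in HD livers, 11.7 ± 0.872 FPKM in OC livers and 6.41 ± 0.864 FPKM in NC livers (log2 difference -0.030, SE 0.093, adjusted p = 0.82). Cd5l, a secreted macrophage protein, averaged 15.2 ± 0.804 FPKM in HD livers, 28.2 ± 1.29 FPKM in OC livers and 15.5 ± 0.307 FPKM in NC livers (log2 difference -0.030, SE 0.043, adjusted p = 0.61). In Marco and Cd5l the HD and NC libraries overlapped, and the 95% intervals of the difference were -0.23 to 0.17 and -0.12 to 0.062. Cd163, the haemoglobin scavenger receptor, averaged 3.74 ± 0.0512 FPKM in HD livers, 6.17 ± 0.363 FPKM in OC livers and 3.25 ± 0.149 FPKM in NC livers (log2 difference 0.16, SE 0.043, adjusted p = 0.008).

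Several listed lymphocyte markers, Cd3e and Cd3d among them, lay below the filter and were not tested. Of the 6 tested, 1 was higher in HD. It was Cd4, with 6.42, 6.10 and 6.01 FPKM in HD livers, against 5.14, 5.69 and 4.53 FPKM in NC livers (log2 difference 0.23, SE 0.089, adjusted p = 0.045), and it did not pass without HD replicate 1, HD replicate 2, HD replicate 3, NC replicate 1, NC replicate 3 or OC replicate 2, nor with the replicate block, a pseudocount of 5 or no filter (0 higher in each). The bile duct marker Epcam, an adhesion molecule, overlapped between HD and NC, with a difference of 0.072. Of 8 red cell markers 4 were higher, among them Hba-a2 (log2 difference 0.57, SE 0.12, adjusted p = 0.001), and 2 were higher without HD replicate 2 or NC replicate 3. Haemoglobin copies are nearly identical, so their split is uncertain. The exocrine pancreas was represented by Cela1 alone, with a difference of 0.059.

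The 2 tested neutrophil markers, S100a9 and S100a8, were higher in HD than in NC, by 1.03 and 0.74. The other listed neutrophil markers lay below the filter and were not tested. Among them, Mpo and Elane reached at most 0.0542 and 0.110 FPKM in HD. Csf3r had 0.390, 0.436 and 0.488 FPKM in HD livers, 0.497, 0.570 and 0.500 FPKM in OC livers and 0.347, 0.373 and 0.305 FPKM in NC livers. Cxcr2 overlapped between HD and NC. The 3 tested fat cell markers Cfd, Fabp4 and Cidea were higher in HD, by 1.09, 0.65 and 0.73. Lep was at 0 in all HD, OC and NC libraries, and Adipoq and Plin1 reached at most 0.0261 and 0.0157 FPKM. Of 13 tested hepatocyte markers, 6 were higher and 3 lower in HD, with a median of 0.10, and 8 higher and 1 lower under TPM and with voom.

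**Figure D4:**
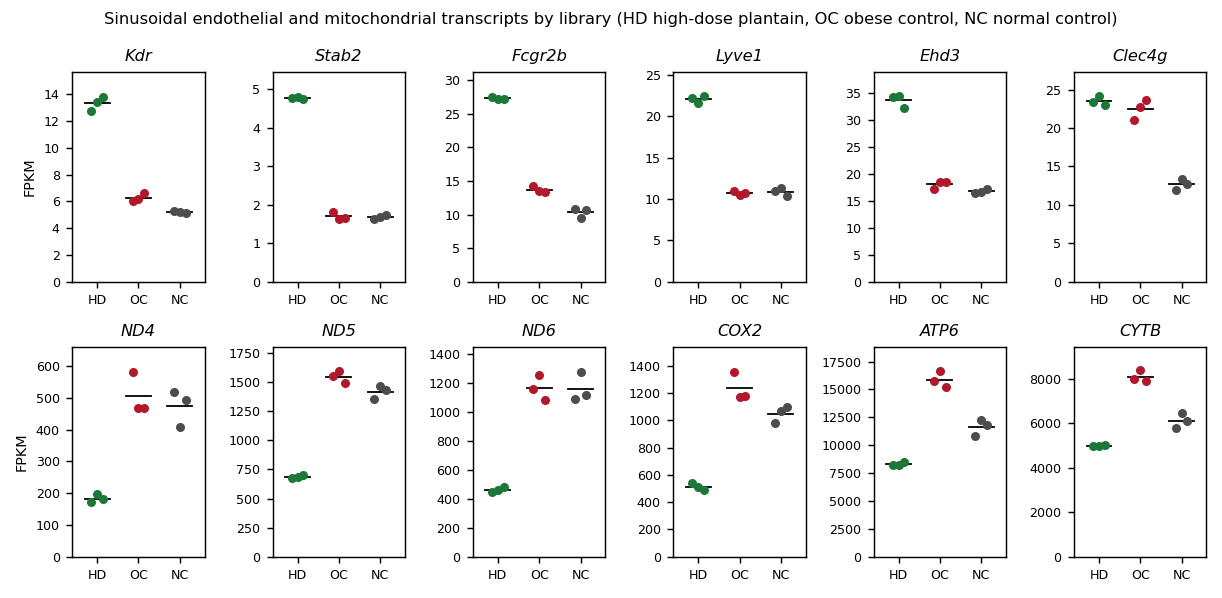
FPKM per library (points) and group mean (horizontal lines) of 6 markers of sinusoidal endothelium (upper row) and 6 mitochondrially encoded transcripts (lower row) in HD, OC and NC, each axis starting at 0. All 6 markers are higher in HD than in NC, with Clec4g as high in OC as in HD, and all 6 mitochondrial transcripts are lowest in HD.

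All 13 transcripts encoded by the mitochondrial genome were lower in HD than in NC, with a median of -0.65, while 11 of them were higher in OC than in NC, with a median of 0.35. They are the core subunits of the respiratory complexes I, III and IV and of ATP synthase. ND5, of complex I, had 679, 687 and 702 FPKM in HD livers, 1554, 1594 and 1493 FPKM in OC livers and 1358, 1469.9 and 1430.0 FPKM in NC livers (log2 difference -1.04, SE 0.051, adjusted p = 1.8e-10). COX2, of complex IV, had 544, 510.1 and 489.9 FPKM in HD livers, 1356, 1172 and 1183 FPKM in OC livers and 979, 1073 and 1099 FPKM in NC livers (log2 difference -1.03, SE 0.084, adjusted p = 7.7e-08). ATP6, of ATP synthase, averaged 8329.8 ± 175 FPKM in HD livers, 15883 ± 739 FPKM in OC livers and 11621 ± 730.0 FPKM in NC livers, and CYTB, of complex III, averaged 4988 ± 21.5 FPKM in HD livers, 8089.6 ± 271 FPKM in OC livers and 6102 ± 328 FPKM in NC livers. Every HD library was below every OC and NC library in these 4 transcripts.

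ND6 averaged 462 ± 16.6 FPKM in HD livers, 1168 ± 84.9 FPKM in OC livers and 1162 ± 102 FPKM in NC livers and ND4L averaged 1504 ± 5.38 FPKM in HD livers, 3303 ± 141 FPKM in OC livers and 2749 ± 113 FPKM in NC livers. ND6 lies on the strand opposite to ND5, and ND4L overlaps ND4, so without a stated strand setting their reads cannot be fully told apart. Mitochondrial genes took 4.59 to 4.70% of the reads in HD, 7.86 to 8.38% in OC and 6.20 to 6.65% in NC, a difference of -1.81 percentage points between HD and NC (exact permutation p = 0.1, two-sided, the smallest that 3 against 3 can give). Under quantile normalization 12 of the 13 were lower.

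Most subunits of the same complexes that are encoded in the nucleus lay close to normal in HD, as most genes did. The 95% interval lay within 1.5-fold for 23 of the 26 tested, beside 80.4% of all genes. Of the 26, 1 was higher and 6 lower in HD, with a median of -0.019 beside -0.017 for all genes. This balance turned with the scaling, to 8 higher and 2 lower under TPM, 7 and 2 under quantile normalization and 6 and 4 with voom. Without NC replicate 1 or OC replicate 3 there were 2 higher members. Ndufb8, of complex I, averaged 104 ± 1.52 FPKM in HD livers, 107 ± 1.497 FPKM in OC livers and 89.7 ± 2.003 FPKM in NC livers (log2 difference 0.21, SE 0.022, adjusted p = 1.3e-06). Sdhb, of complex II, averaged 123 ± 3.17 FPKM in HD livers, 127 ± 1.26 FPKM in OC livers and 143 ± 3.16 FPKM in NC livers (log2 difference -0.21, SE 0.026, adjusted p = 1.2e-05). Cox7a2, of complex IV, averaged 104 ± 4.06 FPKM in HD livers, 146 ± 3.32 FPKM in OC livers and 117 ± 2.39 FPKM in NC livers (log2 difference -0.17, SE 0.040, adjusted p = 0.0031). Ndufa1, of complex I, had the lowest difference, -2.47, and did not pass, with 1.75, 1.55 and 1.38 FPKM in HD livers, 17.4, 1.20 and 2.58 FPKM in OC livers and 26.2, 59.9 and 0.712 FPKM in NC livers. Its libraries spread as widely within OC and NC as between the groups.

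Small noncoding RNA genes were on the low side in HD. Of 149 tested snoRNA genes, 0 were higher and 33 lower by limma, with 0 and 48 at an unadjusted p under 0.05 and a median of -0.54, and of 107 tested miRNA genes 1 was higher and 26 lower, with a median of -0.48. For 47 snRNA genes the counts were 0 and 9, and for 10655 protein-coding genes 2207 and 2489, with a median of -0.013. The share of genes called was 22.1% for snoRNA and 25.2% for miRNA genes, below the 44.1% of protein-coding genes. The mature forms are shorter than the fragments that such libraries keep. Depth was lowest in HD, at 16598744 to 20636859 reads against 25516284 to 26202811 in NC, and its part in these values was not tested.

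Plasma proteins of the acute phase were mostly above normal in HD. Of 17 tested members, 12 were higher and 3 lower, with a median of 0.18, and in OC 13 were higher and 2 lower, with a median of 0.24. Lbp, the lipopolysaccharide-binding protein, had 85.1, 83.7 and 80.7 FPKM in HD livers, 68.7, 70.0 and 71.1 FPKM in OC livers and 29.7, 29.3 and 27.5 FPKM in NC livers (log2 difference 1.498, SE 0.038, adjusted p = 7.3e-14). Hpx, the heme carrier hemopexin, had 5306, 5344 and 5310.5 FPKM in HD livers, 6134, 6125 and 6142 FPKM in OC livers and 3467, 3535 and 3487 FPKM in NC livers (log2 difference 0.61, SE 0.012, adjusted p = 5.3e-15). Lbp was highest in HD and Hpx highest in OC, and neither overlapped with NC. Itih4, an inhibitor chain, averaged 1600.5 ± 15.8 FPKM in HD livers, 1372 ± 9.96 FPKM in OC livers and 1162 ± 8.22 FPKM in NC livers (log2 difference 0.46, SE 0.011, adjusted p = 5.3e-14), and Fga, the fibrinogen alpha chain, averaged 2284 ± 6.38 FPKM in HD livers, 2486 ± 0.789 FPKM in OC livers and 1745 ± 6.13 FPKM in NC livers (log2 difference 0.39, SE 0.011, adjusted p = 2.4e-13).

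Of 14 tested inflammatory genes, 7 were higher and 0 lower in HD than in NC, with a median of 0.21. At an unadjusted p under 0.05, 1 was lower. Fitting HD and NC libraries alone, or leaving out OC replicate 3, added 1 lower gene. Other listed genes lay below the filter and were not tested, namely Ccl2, Cxcl2, Tlr2, Tlr4, Tnf and Il6. Tnf and Il6 were at 0 in all HD, OC and NC libraries. Icam1, a leukocyte adhesion molecule, had 15.3, 14.9 and 14.5 FPKM in HD livers, 13.7, 13.4 and 13.3 FPKM in OC livers and 10.2, 10.5 and 9.96 FPKM in NC livers (log2 difference 0.50, SE 0.032, adjusted p = 4.1e-09). Stat3, the factor that carries interleukin-6 signals, averaged 27.2 ± 0.496 FPKM in HD livers, 25.9 ± 0.455 FPKM in OC livers and 21.5 ± 0.386 FPKM in NC livers (log2 difference 0.33, SE 0.026, adjusted p = 4.9e-08). Cd14, a co-receptor for lipopolysaccharide, averaged 20.3 ± 0.857 FPKM in HD livers, 19.2 ± 1.02 FPKM in OC livers and 15.0 ± 1.11 FPKM in NC livers (log2 difference 0.42, SE 0.065, adjusted p = 9.1e-05). Il1r1, the interleukin-1 receptor, averaged 26.4 ± 0.936 FPKM in HD livers, 25.2 ± 0.739 FPKM in OC livers and 23.0 ± 0.564 FPKM in NC livers (log2 difference 0.19, SE 0.029, adjusted p = 5.6e-05). Icam1, Stat3, Cd14 and Il1r1 were higher in HD than in NC, and macrophage and endothelial markers were higher in the same libraries, by medians of 0.42 and 0.96. Their part in these differences was not tested.

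Of 23 tested interferon and antigen presentation genes, 6 were higher and 4 lower in HD, and 8 higher and 2 lower under TPM. These shares are near those over all genes, 19.5% higher and 22.9% lower, so the count is no result about the list. Ifit1, an antiviral protein induced by interferon, averaged 1.52 ± 0.130 FPKM in HD livers, 1.698 ± 0.194 FPKM in OC livers and 0.341 ± 0.0226 FPKM in NC livers. Ifit2, of the same family, averaged 5.32 ± 0.334 FPKM in HD livers, 4.36 ± 0.170 FPKM in OC livers and 2.88 ± 0.106 FPKM in NC livers. Both were higher in HD than in NC, by 0.91 and 0.70. Stat2, a factor of the interferon pathway, averaged 28.8 ± 0.546 FPKM in HD livers, 22.6 ± 0.774 FPKM in OC livers and 37.6 ± 0.0458 FPKM in NC livers and was lower in HD (log2 difference -0.37, SE 0.027, adjusted p = 1.8e-08).

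Of 19 tested genes of fibrosis and stellate cells, 10 were higher and 2 lower in HD, with a median of 0.21, and in OC 12 were higher and 1 lower, with a median of 0.36. Sparc, a matrix-binding glycoprotein, had 52.8, 51.6 and 51.4 FPKM in HD livers, 51.9, 51.4 and 54.0 FPKM in OC livers and 29.3, 30.4 and 29.4 FPKM in NC livers (log2 difference 0.79, SE 0.026, adjusted p = 2.1e-12). Col4a1, a collagen of basement membranes, averaged 6.02 ± 0.126 FPKM in HD livers, 5.62 ± 0.269 FPKM in OC livers and 3.30 ± 0.0814 FPKM in NC livers (log2 difference 0.71, SE 0.056, adjusted p = 5.7e-08), and Fn1, fibronectin, averaged 248 ± 3.60 FPKM in HD livers, 298 ± 1.69 FPKM in OC livers and 193 ± 2.51 FPKM in NC livers (log2 difference 0.36, SE 0.026, adjusted p = 2.0e-08). Reln, a marker of stellate cells, averaged 5.13 ± 0.297 FPKM in HD livers, 4.07 ± 0.129 FPKM in OC livers and 2.70 ± 0.0327 FPKM in NC livers (log2 difference 0.73, SE 0.043, adjusted p = 1.9e-09). Sparc, Reln, Fn1 and Col4a1 were higher in HD than in NC. Lox, which crosslinks collagen, had 2.24, 2.31 and 2.16 FPKM in HD livers, 10.3, 9.76 and 10.1 FPKM in OC livers and 2.86, 3.13 and 2.72 FPKM in NC livers (log2 difference -0.27, SE 0.065, adjusted p = 0.0036). Lox was slightly below NC in HD and far above it in OC (log2 difference 1.505, SE 0.065, adjusted p = 2.0e-11). The sinusoidal endothelial markers rose in the same HD libraries, and their part in the matrix genes was not tested.

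Endoplasmic reticulum chaperones such as Hspa5 and Hyou1 were high in OC and below normal in HD. The co-chaperone Dnajb9 was below normal in both. Of 23 tested genes of protein folding stress and amino acid shortage, 0 were higher and 13 lower in HD than in NC, with a median of -0.089, whereas in OC 14 were higher and 5 lower, with a median of 0.33. At an unadjusted p under 0.05, limma gave 0 higher and 14 lower members in HD. TPM gave 2 higher and 9 lower between HD and NC, quantile normalization 2 and 10, and voom 2 and 12. Hspa5, the chaperone BiP, had 187, 186 and 184 FPKM in HD livers, 389.6, 390.3 and 389 FPKM in OC livers and 223, 223 and 225 FPKM in NC livers (log2 difference -0.27, SE 0.015, adjusted p = 7.6e-10). HD was slightly below NC and far below OC, with an HD minus OC difference of -1.06. Manf, a secreted factor of the organelle, had 72.3, 71.4 and 75.3 FPKM in HD livers, 189, 177 and 187 FPKM in OC livers and 107, 109.7 and 109.7 FPKM in NC livers (log2 difference -0.57, SE 0.035, adjusted p = 2.5e-09). Hyou1, a chaperone of the Hsp70 family, averaged 21.7 ± 0.523 FPKM in HD livers, 65.0 ± 1.6997 FPKM in OC livers and 30.0 ± 0.950 FPKM in NC livers (log2 difference -0.45, SE 0.039, adjusted p = 1.8e-07).

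Creld2, a stress-induced disulfide isomerase, had 14.1, 13.3 and 15.0 FPKM in HD livers, 52.7, 51.4 and 52.8 FPKM in OC livers and 13.7, 14.7 and 16.1 FPKM in NC livers. Its HD and NC libraries overlapped and OC stood above both, which is a description, since Creld2 was named for this pattern. Pdia4, a disulfide isomerase, averaged 97.7 ± 1.53 FPKM in HD livers, 168 ± 2.89 FPKM in OC livers and 109 ± 2.57 FPKM in NC livers (log2 difference -0.16, SE 0.020, adjusted p = 1.3e-05). Xbp1, the transcription factor activated by splicing of its mRNA, had 189, 196 and 195 FPKM in HD livers, 132, 132 and 127 FPKM in OC livers and 296, 299 and 296 FPKM in NC livers (log2 difference -0.62, SE 0.029, adjusted p = 9.3e-11). Xbp1 was lower in OC than in HD, opposite to Hspa5, Hyou1 and Pdia4. Herpud1, of protein quality control, averaged 138 ± 4.22 FPKM in HD livers, 115 ± 1.55 FPKM in OC livers and 187 ± 0.392 FPKM in NC livers (log2 difference -0.43, SE 0.023, adjusted p = 4.3e-10), and Dnajb9, a co-chaperone, averaged 13.5 ± 0.3997 FPKM in HD livers, 15.4 ± 0.234 FPKM in OC livers and 26.5 ± 0.437 FPKM in NC livers (log2 difference -0.93, SE 0.065, adjusted p = 1.3e-08).

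Some promoters of this list hold the endoplasmic reticulum stress element. Promoters of 300 bases (250 before to 50 after the start, RefSeq, build GRCr8) were found for 19 of the 23 tested members. The endoplasmic reticulum stress element, searched as CCAAT followed after any 9 bases by CCACG, on both strands, was present in 7 of these 19 (36.8%), namely Hspa5, Hsp90b1, Dnajc3, Creld2, Calr, Canx and Xbp1, and in 22 of 33469 promoters of the whole table (0.0657%). The list includes textbook targets of this element, so the higher share is no independent support for the list. A match describes letters only. The promoters of Hspa5 (chr3:38452766-38453065, plus strand) and Creld2 (chr7:121789134-121789433, plus strand) are shown because these genes had high levels in OC and levels near or below NC in HD. Xbp1 also holds the element but was lower in OC than in NC. Hyou1 and Pdia4 were high in OC and had no match in their promoters. A link between the element and these levels was not tested. Capitals mark the element, which in Creld2 lies on the opposite strand and so reads as its reverse complement.
Hspa5: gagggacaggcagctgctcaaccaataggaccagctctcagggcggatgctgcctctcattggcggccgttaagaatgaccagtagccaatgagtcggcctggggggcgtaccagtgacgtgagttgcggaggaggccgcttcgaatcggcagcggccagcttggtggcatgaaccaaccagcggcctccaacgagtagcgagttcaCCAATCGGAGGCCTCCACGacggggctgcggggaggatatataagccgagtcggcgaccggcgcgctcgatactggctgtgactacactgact
Creld2: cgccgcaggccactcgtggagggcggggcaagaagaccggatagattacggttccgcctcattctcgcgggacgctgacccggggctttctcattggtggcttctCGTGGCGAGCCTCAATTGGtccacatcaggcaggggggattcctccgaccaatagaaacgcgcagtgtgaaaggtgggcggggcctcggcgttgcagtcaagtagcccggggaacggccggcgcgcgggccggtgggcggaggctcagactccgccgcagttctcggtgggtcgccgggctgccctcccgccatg

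Cytosolic heat shock genes were 7 of 17 higher and 3 lower in HD. Fewer were lower under TPM and without HD replicate 1, NC replicate 2 or NC replicate 3, with 1 in each. Fkbp4, a co-chaperone of steroid receptors, averaged 47.5 ± 0.575 FPKM in HD livers, 72.7 ± 0.637 FPKM in OC livers and 33.3 ± 0.874 FPKM in NC livers (log2 difference 0.50, SE 0.023, adjusted p = 8.0e-11). Hsp90ab1, a main cytosolic chaperone, averaged 288 ± 6.67 FPKM in HD livers, 351 ± 4.06 FPKM in OC livers and 232 ± 4.60 FPKM in NC livers (log2 difference 0.31, SE 0.021, adjusted p = 6.6e-09), and Hspb1, a small heat shock protein, averaged 11.8 ± 1.41 FPKM in HD livers, 11.3 ± 0.979 FPKM in OC livers and 6.43 ± 0.775 FPKM in NC livers (log2 difference 0.78, SE 0.11, adjusted p = 2.5e-05). Fkbp4 and Hsp90ab1 lay between OC and NC.

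Clock genes were below normal in HD for most members, with 13 of 17 lower and 2 higher, and a median of -0.33. In OC 12 were lower and 4 higher, with a median of -0.90. In the clock the factors BMAL1 (Arntl), CLOCK and NPAS2 drive the Per, Cry and Nr1d genes, which act back on them. Bhlhe40, a repressor of the loop, had 18.9, 18.7 and 18.8 FPKM in HD livers, 13.7, 12.8 and 12.5 FPKM in OC livers and 39.9, 40.2 and 42.3 FPKM in NC livers (log2 difference -1.08, SE 0.037, adjusted p = 3.1e-12). Dbp, an output factor, had 100.1, 98.6 and 99.9 FPKM in HD livers, 50.3, 48.4 and 50.9 FPKM in OC livers and 149, 153 and 155 FPKM in NC livers (log2 difference -0.61, SE 0.027, adjusted p = 4.7e-11). Per3, a period gene, had 6.96, 7.72 and 7.37 FPKM in HD livers, 2.22, 2.34 and 2.31 FPKM in OC livers and 13.6, 14.1 and 13.5 FPKM in NC livers (log2 difference -0.82, SE 0.050, adjusted p = 2.5e-09). In all of these HD lay below NC and above OC, without overlap.

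Nr1d1, which encodes the repressor REV-ERBalpha, had 17.8, 16.4 and 15.5 FPKM in HD livers, 25.7, 26.3 and 24.5 FPKM in OC livers and 32.8, 35.0 and 35.2 FPKM in NC livers (log2 difference -1.01, SE 0.063, adjusted p = 3.3e-09), lowest in HD. Arntl had 0.824, 0.902 and 0.810 FPKM in HD livers, 6.71, 5.78 and 5.67 FPKM in OC livers and 0.259, 0.237 and 0.395 FPKM in NC livers (log2 difference 0.51, SE 0.078, adjusted p = 7.6e-05), so it was low in HD and NC and high in OC (log2 difference 2.44, SE 0.078, adjusted p = 5.4e-13). Npas2 had 0.162, 0.165 and 0.22001 FPKM in HD livers, 2.62, 2.48 and 2.76 FPKM in OC livers and 0.0900, 0.119 and 0.133 FPKM in NC livers, and it too was named for this pattern and is given without a test. Per2 averaged 9.42 ± 0.284 FPKM in HD livers, 5.05 ± 0.215 FPKM in OC livers and 10.3 ± 0.209 FPKM in NC livers (log2 difference -0.11, SE 0.040, adjusted p = 0.032), and it did not pass under TPM, quantile normalization or voom, nor without HD replicate 1, HD replicate 2, NC replicate 1 or NC replicate 2. Ciart, a repressor of CLOCK, averaged 0.811 ± 0.2998 FPKM in HD livers, 0.612 ± 0.0437 FPKM in OC livers and 3.95 ± 0.209 FPKM in NC livers (log2 difference -1.46, SE 0.12, adjusted p = 5.1e-08). The labels do not give the time of day at which livers were taken, so a shift of sampling time between groups and a change of the clock cannot be told apart.

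Promoters were found for 15 of the 17 tested clock genes. The E-box CACGTG, the site of CLOCK and BMAL1, was present in 3 of them (20%), Tef, Bhlhe40 and Ciart, and in 6.42% of all 33469 promoters. The share was 15.8% both in the cholesterol list and in the unfolded protein list. The element AGGTCA, read by ROR and REV-ERB factors and searched on both strands, was in 2 of the 15 (13.3%), Arntl and Nr1d2, and in 16.2% of all promoters. Bhlhe40 (chr4:143174200-143174499, plus strand) has 1 copy of the E-box and Ciart (chr2:186112197-186112496, minus strand) has 3. They are shown because both were among the clock genes lower in HD than in NC, with differences of -1.08 and -1.46. Capitals mark the E-box.
Bhlhe40: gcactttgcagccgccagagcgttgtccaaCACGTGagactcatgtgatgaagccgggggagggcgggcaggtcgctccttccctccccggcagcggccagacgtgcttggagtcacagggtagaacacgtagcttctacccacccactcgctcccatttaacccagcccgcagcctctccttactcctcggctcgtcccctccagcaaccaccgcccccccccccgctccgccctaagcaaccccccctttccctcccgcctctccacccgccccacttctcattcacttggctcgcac
Ciart: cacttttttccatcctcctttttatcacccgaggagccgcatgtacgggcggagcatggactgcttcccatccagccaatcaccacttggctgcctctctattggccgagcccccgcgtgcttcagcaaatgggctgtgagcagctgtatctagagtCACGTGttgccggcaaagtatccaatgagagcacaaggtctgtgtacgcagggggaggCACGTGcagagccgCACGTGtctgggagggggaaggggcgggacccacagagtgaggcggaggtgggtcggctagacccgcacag

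**Figure D5:**
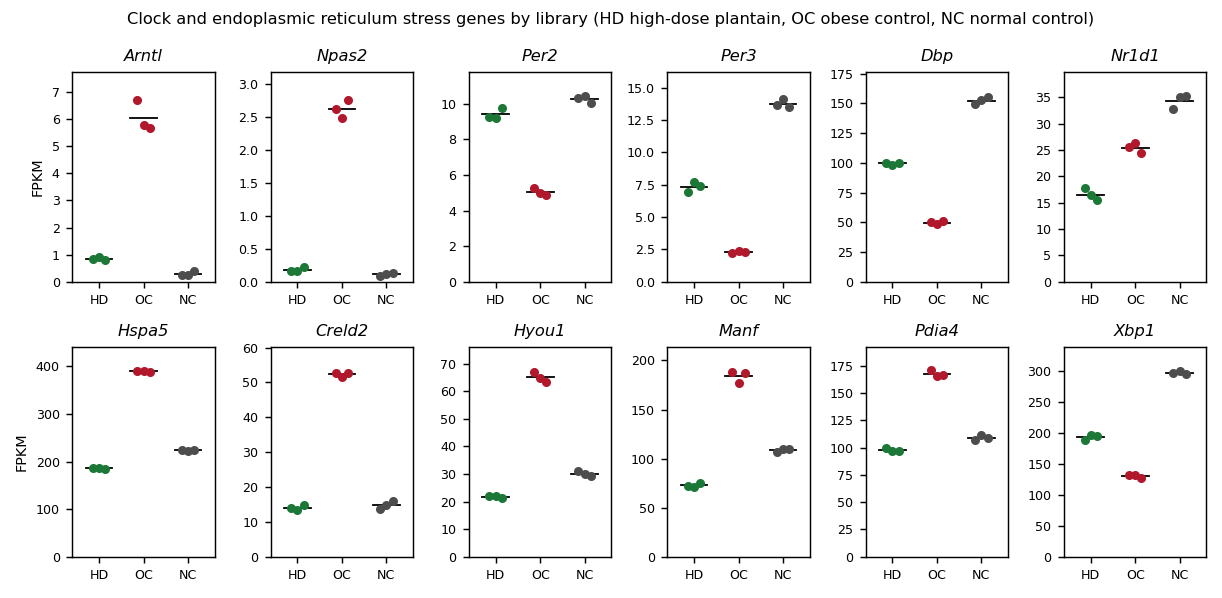
FPKM per library (points) and group mean (horizontal lines) of 6 clock genes (upper row) and 6 genes of endoplasmic reticulum stress (lower row) in HD, OC and NC, each axis starting at 0. Arntl, Npas2, Hspa5, Creld2, Hyou1, Manf and Pdia4 are highest in OC, with HD much nearer to NC than to OC, while Per3, Dbp and Xbp1 in HD lie between OC and NC.

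Growth hormone and sex-biased genes had 4 of 18 tested members higher and 7 lower in HD, and 7 higher and 6 lower under TPM, and the median turned from -0.0062 to 0.048 under TPM, 0.036 under quantile normalization and 0.024 with voom. Prlr, the prolactin receptor, had 3.10, 3.15 and 3.44 FPKM in HD livers, 17.4, 17.0 and 16.9 FPKM in OC livers and 8.42, 8.35 and 8.38 FPKM in NC livers (log2 difference -1.15, SE 0.063, adjusted p = 7.4e-10). Bcl6, a male-type repressor in rodent liver, had 2.87, 2.73 and 2.48 FPKM in HD livers, 10.5, 10.6 and 10.5 FPKM in OC livers and 6.12, 5.48 and 5.43 FPKM in NC livers (log2 difference -0.85, SE 0.048, adjusted p = 9.9e-10). Prlr and Bcl6 were lowest in HD and highest in OC. Srd5a1, a steroid reductase, averaged 65.7 ± 1.12 FPKM in HD livers, 128 ± 2.56 FPKM in OC livers and 105 ± 0.663 FPKM in NC livers (log2 difference -0.67, SE 0.023, adjusted p = 3.1e-12), and Hao2, a hydroxyacid oxidase, averaged 147 ± 0.193 FPKM in HD livers, 241 ± 4.26 FPKM in OC livers and 239 ± 1.92 FPKM in NC livers (log2 difference -0.69, SE 0.028, adjusted p = 1.8e-11). Onecut1, a hepatocyte transcription factor, averaged 17.5 ± 0.607 FPKM in HD livers, 7.81 ± 0.0841 FPKM in OC livers and 35.1 ± 0.345 FPKM in NC livers (log2 difference -0.97, SE 0.078, adjusted p = 7.1e-08).

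Of 16 tested secreted hepatokines 8 were higher and 7 lower in HD, and 7 and 7 under quantile normalization. Fetub, fetuin B, had 1909, 1878 and 1906 FPKM in HD livers, 2654, 2691 and 2665 FPKM in OC livers and 2729.5, 2697 and 2743 FPKM in NC livers (log2 difference -0.52, SE 0.013, adjusted p = 5.3e-14). It was far lower in HD than in either control, and OC lay slightly below NC. Nrg4, an epidermal growth factor family ligand, had 8.12, 8.72 and 8.03 FPKM in HD livers, 1.02, 1.21 and 0.794 FPKM in OC livers and 19.0, 21.9 and 19.9 FPKM in NC livers (log2 difference -1.19, SE 0.11, adjusted p = 3.9e-07). HD lay below NC and above OC, whose difference from NC was -3.41. Selenop, the selenium carrier of plasma, averaged 5004 ± 42.5 FPKM in HD livers, 3388 ± 125 FPKM in OC livers and 3952 ± 43.0 FPKM in NC livers (log2 difference 0.34, SE 0.022, adjusted p = 5.8e-09), and Angptl6 averaged 18.3 ± 1.22 FPKM in HD livers, 19.2 ± 1.45 FPKM in OC livers and 10.4 ± 0.932 FPKM in NC livers (log2 difference 0.77, SE 0.065, adjusted p = 1.1e-07).

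Of 11 tested genes of the cell cycle and p53 response, 4 were higher and 1 lower in HD, a share of calls near the 42.4% over all genes. A second lower gene was added with HD and NC libraries alone or without OC replicate 3. Cdkn1a, the cyclin-dependent kinase inhibitor p21, had 10.02, 10.2 and 9.79 FPKM in HD livers, 18.2, 17.4 and 17.3 FPKM in OC livers and 3.69, 3.13 and 3.03 FPKM in NC livers (log2 difference 1.37, SE 0.086, adjusted p = 3.9e-09). Gadd45g, a stress-induced gene, had 42.4, 41.2 and 41.9 FPKM in HD livers, 75.5, 76.5 and 79.9 FPKM in OC livers and 22.5, 24.9 and 23.2 FPKM in NC livers (log2 difference 0.81, SE 0.049, adjusted p = 2.2e-09). Both lay between OC and NC. Of 15 immediate early genes, which respond within minutes to handling and hormones, 4 were higher and 5 lower, with 4 and 4 under TPM and 2 higher at a filter of 5 FPKM. Dusp1, a phosphatase, averaged 61.1 ± 0.977 FPKM in HD livers, 68.5 ± 2.24 FPKM in OC livers and 114 ± 2.16 FPKM in NC livers (log2 difference -0.89, SE 0.033, adjusted p = 7.5e-12), and Klf10, a transcription factor, averaged 4.85 ± 0.544 FPKM in HD livers, 5.50 ± 0.324 FPKM in OC livers and 14.2 ± 0.854 FPKM in NC livers (log2 difference -1.38, SE 0.083, adjusted p = 2.0e-09).

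Some genes far from normal in OC lay within 1.5-fold of normal in HD, by the 95% interval on the log2(FPKM + 1) scale, as 80.4% of all genes did. For low genes this is no bound on FPKM, as in Npas2, which averaged 0.182 FPKM in HD livers and 0.114 FPKM in NC livers. The rule that chose them used these values, so they are described without a test. Lying within the bound is not the same as being at the normal level. Of the genes named here, only Creld2 and Epm2a had overlapping HD and NC libraries. The others did not overlap, as 53.4% of all genes did not. Higher in OC were Kynu, an enzyme of tryptophan breakdown, with 35.0 ± 0.793 FPKM in HD livers, 95.4 ± 2.55 FPKM in OC livers and 25.5 ± 0.738 FPKM in NC livers, and Chka, choline kinase, with 7.05 ± 0.304 FPKM in HD livers, 24.6 ± 0.687 FPKM in OC livers and 6.13 ± 0.368 FPKM in NC livers. Wsb1, a ubiquitin ligase component, averaged 14.3 ± 1.05 FPKM in HD livers, 38.0 ± 0.403 FPKM in OC livers and 11.0 ± 0.626 FPKM in NC livers. Creld2 and Npas2 completed this set. Lower in OC were Nat8f3, an acetyltransferase family gene with near-identical copies, with 2.98 ± 0.235 FPKM in HD livers, 0.367 ± 0.212 FPKM in OC livers and 3.83 ± 0.0405 FPKM in NC livers, and Wee1, a cell cycle kinase, with 4.53 ± 0.308 FPKM in HD livers, 1.101 ± 0.208 FPKM in OC livers and 5.01 ± 0.279 FPKM in NC livers. Prkaa2, a catalytic subunit of AMP-activated kinase, averaged 29.1 ± 0.335 FPKM in HD livers, 12.5 ± 0.479 FPKM in OC livers and 37.5 ± 1.14 FPKM in NC livers, Epm2a, a glycogen phosphatase, averaged 3.80 ± 0.461 FPKM in HD livers, 0.796 ± 0.243 FPKM in OC livers and 3.81 ± 0.538 FPKM in NC livers, and Hlf, a clock output factor, averaged 16.6 ± 1.04 FPKM in HD livers, 6.84 ± 0.713 FPKM in OC livers and 21.2 ± 1.60 FPKM in NC livers.

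Other genes were far from normal in HD while the 95% interval of OC minus NC lay within 1.5-fold on the log2(FPKM + 1) scale. That held for 73.3% of all genes. The bound is not one of FPKM for low genes. Ces2e averaged 0.400 FPKM in OC livers and 0.165 FPKM in NC livers, without overlap. The rule used these values too, so the set is a description, and the p-values given above for Ces2e, Fcgr2b and Kdr are no support for it. Besides these 3, the higher ones were Oit3, a gene of sinusoidal endothelium, with 16.2 ± 1.09 FPKM in HD livers, 7.53 ± 0.774 FPKM in OC livers and 5.65 ± 0.390 FPKM in NC livers, and Serpina3m, a serine protease inhibitor with near-identical copies, with 389.8 ± 7.92 FPKM in HD livers, 218 ± 2.71 FPKM in OC livers and 168 ± 1.999 FPKM in NC livers. Besides ND4 and ND6, the lower ones were Stac3, with 49.7 ± 0.750 FPKM in HD livers, 106 ± 3.19 FPKM in OC livers and 136 ± 2.81 FPKM in NC livers, and Me3, a mitochondrial malic enzyme, with 9.69 ± 0.245 FPKM in HD livers, 17.0 ± 0.433 FPKM in OC livers and 23.4 ± 0.581 FPKM in NC livers. Lcn12, a lipocalin, averaged 16.02 ± 1.12 FPKM in HD livers, 35.1 ± 0.387 FPKM in OC livers and 35.5 ± 0.837 FPKM in NC livers. Oit3, Fcgr2b and Kdr moved with the endothelial markers, of which Fcgr2b and Kdr are themselves members, and the part of that cell type in Oit3 was not tested.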

How the data were processed

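Liver RNA of 18 rat libraries was made with the NEBNext Ultra RNA kit from frozen tissue and sequenced on an Illumina NovaSeq, per the labels and the series' design text. The authors deposited FPKM values per gene. The submitters' processing notes name CASAVA 1.7, Bowtie 0.12.2 and mm8, which is a mouse build. For the rat build, the annotation, the counting tool and its strand setting nothing was stated. Gene symbols and coordinates are those of the deposited table.

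The low values were whole multiples of a step in each library (100% of values, tolerance 0.001 reads), so reads were recovered, 16598744 to 26202811 per library of HD, OC and NC. The total by which the deposited FPKM had been divided was not the sum of these reads. It was 1.025 to 1.03 times that sum in HD, 0.971 to 0.980 times in OC and 0.998 to 1.019 times in NC. The sources do not explain this factor, and its part in the shift under TPM was not tested. Limma 3.58.1 (R 4.3.3) was fitted to log2(FPKM + 1) after a filter of 1 FPKM in 3 or more libraries, with a mean-variance trend, no block, 1 mean per group over 6 groups and 12 residual degrees of freedom. Tests were two-sided, adjusted by Benjamini-Hochberg over all genes tested, with a threshold of 0.05. All fold changes are on the log2(FPKM + 1) scale, which understates changes of low genes, and depth limits precision for those. The fit was tested on simulated data.

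The genes named were the 10 largest rises and falls among protein-coding genes with a symbol whose HD and NC libraries did not overlap and whose mean reached 2 FPKM, the 4 smallest p-values of each list (fewer in short lists), and 5 in each direction for each of the closing descriptions. Another 34 list members were named after their values were seen (for example Insig2, Plin2, Cyp7a1, Gckr, Nrg4, Arntl and Lox). The members and lists were chosen with earlier results of these data known, and lists are described by counts and medians without a list test. Some genes that the rule names are not reported here.

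HD and NC libraries with the same replicate number did not deviate together, so numbers were not used as pairs. Alternatives were other pseudocounts, no filter or a filter of 5 FPKM, TPM, quantile normalization, voom on recovered reads, fits to HD and NC or to HD, OC and NC alone, robust variance, a replicate block and leaving out each library. Thinning every library to the smallest was added after seeing the data. Promoters came from RefSeq, build GRCr8, matched by symbol.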

Additional observations from a re-analysis of the deposited data

How the results depend on the processing

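Of 3208 values of 179 named genes over the alternatives, 3155 kept their direction and their side of the threshold, and 163 genes did so in every alternative. For HD against NC, leaving out single libraries gave 4363 to 4555 genes (1999 to 2095 higher, 2364 to 2460 lower), and voom gave 2710 higher and 2415 lower genes. Under TPM the median over all genes shifted by over 0.1 in the comparisons with OC, to 0.15 for HD minus OC and -0.11 for OC minus NC. It gave 5176 higher and 1476 lower genes for HD against OC and 1973 higher genes for OC against NC, beside 3181, 3018 and 3191 in the reported fit. The replicate numbers did not pair the libraries (correlations of same-numbered deviations 0.066, -0.056 and -0.033). With the replicate block, 4937 genes differed between HD and NC, 2264 higher and 2673 lower, and among named genes only Cd4 changed its call.

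Values that changed sign belonged to 5 genes that did not pass in the reported fit. Epm2a was at 0.0443 under TPM, 0.0197 under quantile normalization, 0.0415 with voom, 0.114 in thinned libraries and -0.0798 to 0.0835 without single libraries. Cd5l was at 0.0221 under TPM, 0.0163 under quantile normalization and 1.4e-04 with voom. Marco was at 0.0187 under TPM. Without single libraries Cd5l ran from -0.0672 to 0.00396, Marco from -0.109 to 0.0576, Nkg7 from -0.257 to 0.109 and Cd79b from -0.0114 to 0.263. Depth limits genes near 1 FPKM most, where HD libraries hold the fewest reads.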
